A study of Arabidopsis thaliana with 10 samples.

Results

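The mature miRNA entries described here are those registered late in the miRNA database, chosen by accession number alone: every entry of the small RNA table with a MIMAT number of 10000 or above. They are 222 of the table's 428 entries, and the other 206 are called the earlier entries. The plants were Arabidopsis thaliana of the Ler ecotype, taken whole as seedlings when 5 days old, after growth on MS medium with no treatment. E5-4 is the line that the labels give as wild type (WT), and it was compared with homozygous fve-8 seedlings, 2 small RNA libraries for each genotype. The labels do not say what else E5-4 or fve-8 carry, nor that the numbered replicates came from separate cultures, so the p-values measure the spread between these libraries, which may be technical. The lowest accession inside the threshold, MIMAT0011150, had 5 and 7 counts in WT replicates 1 and 2 and 4 and 4 in fve-8, and the highest outside it, MIMAT0007855, had 9 and 6 in WT and 2 and 0 in fve-8.

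A plant miRNA is cut from a hairpin transcript by the Dicer DCL1, with HYL1 and SERRATE as partners, as a duplex of a pair of strands. One strand is usually kept by the Argonaute AGO1 and guides the cutting or repression of matching mRNAs, while the other is usually degraded and is found at a lower level. Databases first listed the abundant, conserved miRNAs, and later releases added second strands of known hairpins and young miRNAs found by deeper sequencing. FVE, the gene mutated in fve-8, encodes a WD40-repeat protein that acts with histone deacetylases in the autonomous flowering pathway, and the series title places it beside SGS3, DRB4 and DCL4 of the pathway that silences transgenes. The files give the entries as accession numbers only. Names, strand assignments and sequences of the entries were not used here, so which of them are second strands is not stated, and beyond the entries shown for their level at most a pair of accessions is printed for each direction of change.

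The small RNA libraries held 1280675 and 967163 counts on mature entries in WT replicates 1 and 2, against 376797 and 424637 in fve-8. A count of 0 allows up to 3 counts, which is 2.37 and 3.04 CPM in WT and 8.04 and 7.10 CPM in fve-8, where CPM is the count scaled to library size (counts per megacount) with the trimmed mean of M-values (TMM). In the 6 RNA libraries of the same genotypes, with 16161800 to 19599058 counts, the shoot genes RBCS1A and LHCB1.1 and the root genes CASP1, COBL9 and PYK10 were all detected, and CASP1, COBL9 and LHCB1.1 were called lower in fve-8 by edgeR while RBCS1A and PYK10 were not. The seed storage and oil body genes CRA1, CRC and OLEO1 stood at 6.95 to 54.2 CPM in WT and at 1.06 to 8.21 in fve-8, all 3 called lower, and the floral genes AP1 and AG stayed under 0.25 CPM in each library. FVE itself was at 8.67 to 9.97 CPM in WT and 5.40 to 6.61 in fve-8, so its transcript was lower but present in the mutant. The part that these tissue and seed differences have in any small RNA difference was not tested.

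Late entries were many but mostly scarce. They made up 51.9% of the entries of the table, yet held 9.49% and 9.31% of the counts in WT replicates 1 and 2 and 11.3% and 9.77% in fve-8 (95% Wilson intervals of at most 0.202 percentage points in width, for counting error only). The genotypes did not overlap in this share, but the fve-8 libraries differed from each other by more than the lower of them differed from WT. Mean shares were 9.40% ± 0.124 for WT and 10.6% ± 1.103 for fve-8 (SD, n = 2 each). A two-sided exact permutation test gave p = 0.333, below which a design of 2 against 2 cannot go. The share counts both members of a pair of entries with identical counts. That pair made up 4.56% and 5.39% of the late counts in WT replicates 1 and 2 and 14.4% and 10.2% in fve-8. Its part in the difference between genotypes was not tested. The share was not computed without the pair, so the difference is not shown to hold for the other late entries. In WT, 17 late entries had a mean of at least 1000 CPM, 52 lay between 100 and 1000, 63 between 10 and 100, and 90 below 10, of which 18 had no count in any of the 4 libraries. The median late entry had 18.2 CPM in WT, against 68.8 CPM for the earlier entries. Counts were found for 189 and 196 late entries in WT replicates 1 and 2 and for 168 and 167 in the shallower fve-8 libraries.

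**Figure D1:**
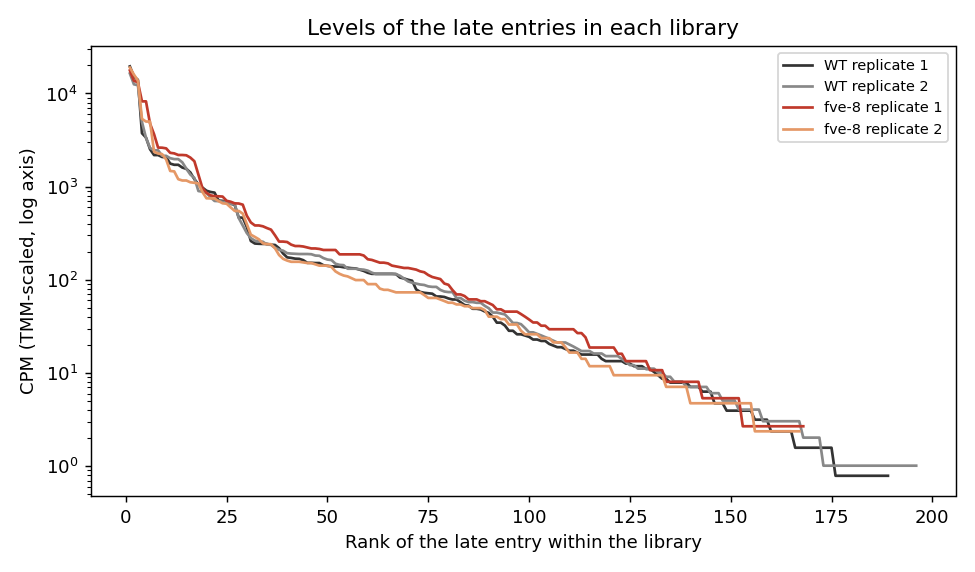
CPM of the late entries (log axis) against their rank within each of the 4 libraries, with entries at 0 left out. In every library 3 entries stand above 10000 CPM and the curve then falls steadily, and fve-8 replicate 1 lies highest over the ranks in the middle.

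A few entries carried most of these counts. The 3 most abundant held 50.9% and 45.2% of all late counts in WT replicates 1 and 2 and 38.9% and 49.6% in fve-8. MIMAT0022423, the highest, had 19525 and 16394 CPM in WT and 17670 and 18975 in fve-8. The genotypes overlapped, and its log2 fold change was 0.03 ± 0.13 (SE, edgeR adjusted p = 0.908). It was linked by counts within 5% in every library with 6 earlier entries, and whether they share reads was not tested. MIMAT0022421 had 15228 and 12246 CPM in WT and 13718 and 15971 in fve-8 (log2 fold change 0.11 ± 0.15). MIMAT0031909 had 13990 and 12547 CPM in WT and 13160 and 13759 in fve-8 (0.02 ± 0.13). Both again overlapped between genotypes, and neither was called. The fifth most abundant entry had 3366 and 3335 CPM in WT and 3653 and 2363 in fve-8, and the sixth had 2523 and 2602 in WT and 2171 and 2233 in fve-8 (log2 fold changes of -0.16 ± 0.20 and -0.22 ± 0.16, not called). In the sixth both fve-8 libraries were below WT, and in the fifth they lay on either side of it. The ninth had near-equal counts with the next entry in order, 2080 and 2143 CPM in WT and 2626 and 1474 in fve-8 (-0.04 ± 0.24), so here too the fve-8 libraries lay on either side of WT.

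The fve-8 libraries differed from each other across the late entries, which bears on every comparison below. Of the 124 late entries that passed the count filter, 97 (78.2%) were lower in fve-8 replicate 2 than in fve-8 replicate 1, with a median difference of -0.63 in log2(CPM + 1). Between the WT libraries the median difference was 0.08, and 44 entries were lower in replicate 2. Among the 147 tested earlier entries the fve-8 difference was smaller, with a median of -0.13 and 92 entries (62.6%) lower in replicate 2. By level, the median was -0.63 for the 17 late entries with at least 1000 CPM in WT, -0.70 for the 52 between 100 and 1000 CPM, and -0.54 for the 55 below 100 CPM, so the shift was present at each level. The median late entry differed by 0.72 between the fve-8 libraries in either direction, by 0.19 between the WT libraries, and by 0.34 between the genotype means. Chi-square per degree of freedom over the late entries was 6.85 between the WT libraries and 11.6 between the fve-8 libraries, so each library was counted as a sample of its own.

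**Figure D2:**
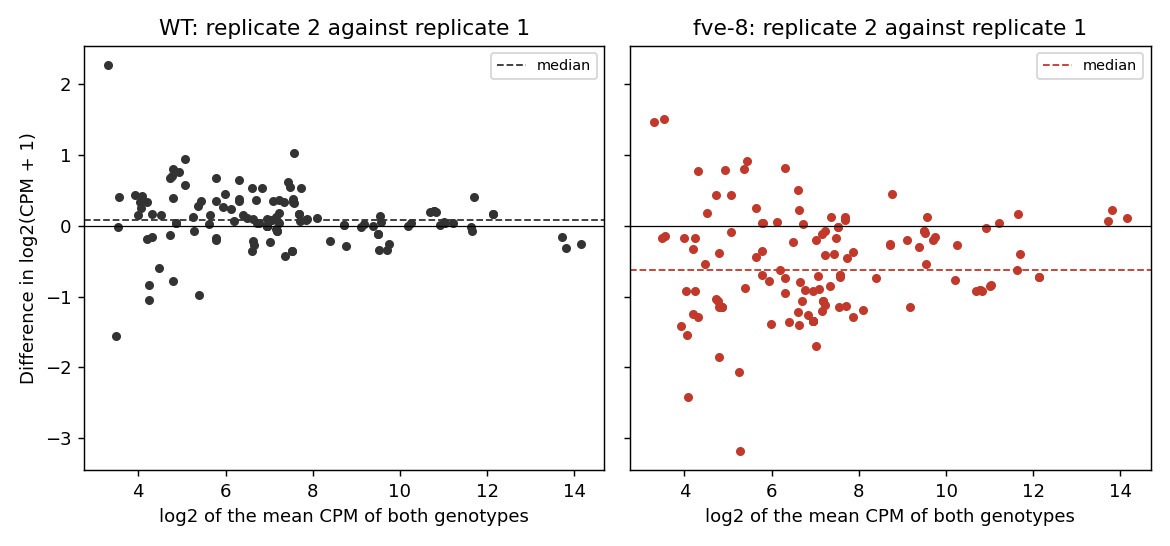
Difference in log2(CPM + 1) between replicate 2 and replicate 1 of each genotype for the 124 tested late entries, against the log2 of their mean CPM, with the median as a dashed line. The WT points centre near 0 (median 0.08), and most fve-8 points lie below 0 (median -0.63).

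Between the genotypes 8 late entries rose and 2 fell in fve-8, out of 124 tested, where a call is an adjusted p below 0.05 over all 271 tested entries by the quasi-likelihood test of edgeR. Across all entries 9.96% of tested entries were called, 7.75% higher and 2.21% lower, against 8.06%, 6.45% and 1.61% of the late ones, shares near that background. The called entries had WT means from 26.3 to 4344 CPM. In each called entry both fve-8 libraries lay on the same side of both WT libraries, and the entries are numbered in the plots by their WT level within each direction.

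The highest of the entries that rose were a pair with identical counts in all libraries, 2768 and 2426 in WT replicates 1 and 2 and 3071 and 2112 in fve-8. In CPM they stood at 2182 and 2454 for WT with fve-8 values of 8230 and 4996, and the log2 fold change was 1.51 ± 0.21 (SE, edgeR adjusted p = 0.000306). Both fve-8 libraries were above both WT libraries, although they were far apart. This pair alone made up 4.56% and 5.39% of the late counts in WT and 14.4% and 10.2% in fve-8.

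MIMAT0032774 had the smallest adjusted p of the late entries. It had 1801 and 1332 counts in WT and 1771 and 2258 in fve-8, which is 1420 and 1348 CPM against 4746 and 5342. The libraries of each genotype lay close together, with fve-8 replicate 2 slightly above replicate 1, and the log2 fold change was 1.87 ± 0.16 (edgeR adjusted p = 3.4e-06). It was the 1 late entry whose call held without any 1 of the 4 libraries, with log2 fold changes of 1.73 to 1.95 and an adjusted p of at most 0.0232.

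The largest rises were among entries that are scarce in WT. MIMAT0022400 had 28 and 34 counts in WT and 134 and 115 in the shallower fve-8 libraries. Scaled to CPM, it went from 22.1 and 34.4 to 359 and 272, and its log2 fold change was 3.49 ± 0.41 (edgeR adjusted p = 5.2e-05). A second entry, with 33 and 38 counts in WT and 129 in each fve-8 library, had a log2 fold change of 3.34 ± 0.39 (adjusted p = 5.1e-05). Another, with 32 and 27 counts in WT and 62 and 60 in fve-8, had 2.55 ± 0.43 (adjusted p = 0.00126). In all 3 the raw counts were higher in the fve-8 libraries in spite of their lower totals. The remaining pair that rose had near-equal counts, 302 and 236 in WT and 247 and 232 in fve-8 for the first and 300, 235, 246 and 232 for the second, with log2 fold changes of 1.34 ± 0.26 and 1.35 ± 0.26 (adjusted p = 0.00387 for each).

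**Figure D3:**
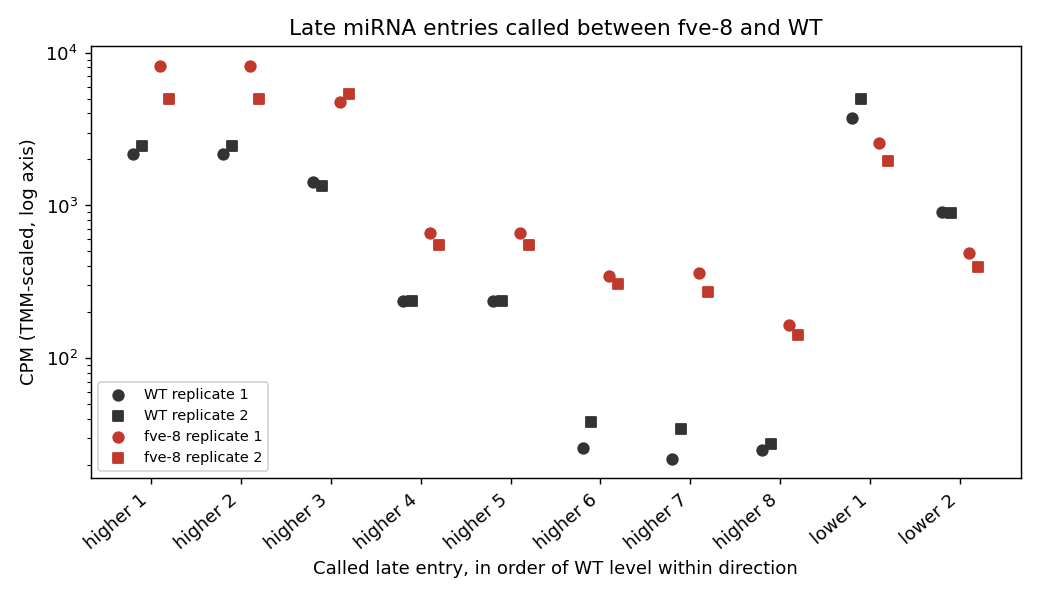
CPM (log axis) in each library for the 8 late entries called higher and the 2 called lower in fve-8, in order of WT level within direction. Every fve-8 point lies above both WT points in the first 8 entries and below both in the last 2, and the entries numbered 1 and 2 show the widest gap between fve-8 libraries, 8230 and 4996 CPM.

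The 2 entries that fell were both well expressed. MIMAT0020532, the fourth most abundant late entry in WT, had 3746 and 4942 CPM in WT and 2575 and 1956 in fve-8. Its log2 fold change was -0.94 ± 0.19 (edgeR adjusted p = 0.00568). MIMAT0031898 had 904 and 897 CPM in WT and 488 and 397 in fve-8. Here the log2 fold change was -1.03 ± 0.23 (adjusted p = 0.00934). Its counts of 1147, 887, 182 and 168 were nearly those of an earlier entry with 1152, 892, 182 and 171, which was also called lower (-1.02 ± 0.23). In both late entries fve-8 replicate 2 was the lowest library.

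Most of these calls were lost in at least 1 fit with a library left out. Of the 10 calls, 1 was left when fve-8 replicate 1 was dropped, 4 when WT replicate 1 was dropped, 5 when WT replicate 2 was dropped, and all 10 when fve-8 replicate 2 was dropped. Leaving out a library puts 1 lone sample in its group, which is then assumed to vary like the other group. A call lost this way does not show that the library left out had made it. All fold changes kept their sign: those of the 3 scarce entries stayed between 2.41 and 3.82, those of the identical pair between 1.11 and 1.77, those of the near-equal pair between 1.20 and 1.42, and those of the 2 that fell between -1.20 and -0.73. With all 4 libraries the 10 calls held under each of the 7 other settings tried.

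**Figure D4:**
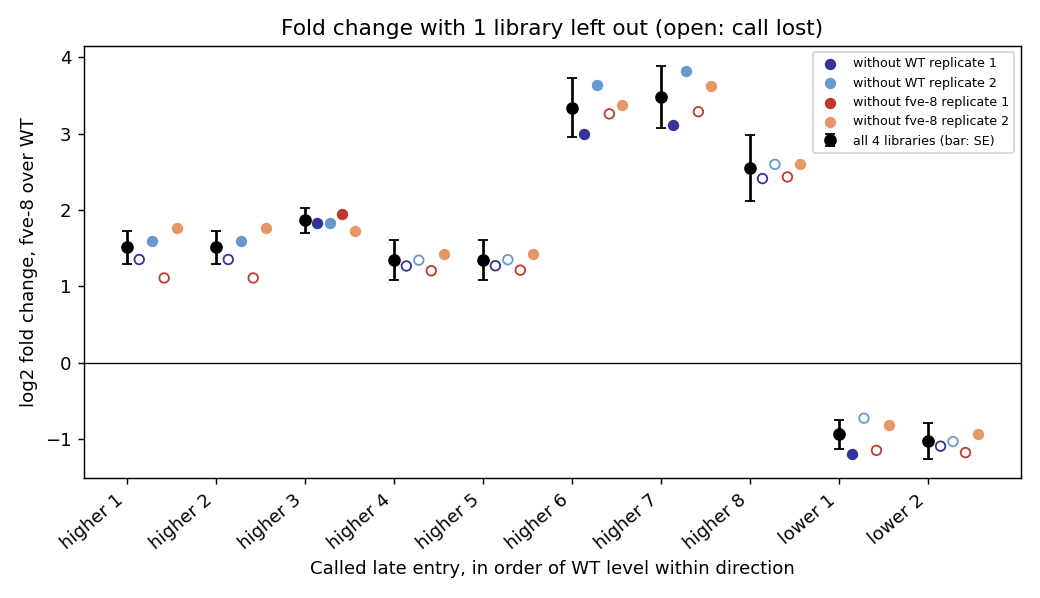
Log2 fold change of the 10 called late entries with all libraries (black, bars are the SE) and with 1 library left out (coloured, open where the adjusted p is 0.05 or above). All points keep their sign, and the third entry called higher keeps its call throughout, between 1.73 and 1.95.

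The 10 calls held fewer than 10 different count profiles. Among the 96 late entries with at least 100 counts in all, 31 (32.3%) fell into 15 groups linked by counts within 5% of each other in every library, and so did 91 (71.7%) of the 127 earlier entries of that depth. The largest such group of late entries held 6 with the same counts, 147, 114, 70 and 31. Of the 15 groups 11 held late entries only, and 4 late entries were grouped with earlier ones. Counted once per group, the 10 late calls were 8 profiles, 6 higher and 2 lower. Entries with equal counts can share the same reads, and their calls are then not separate observations. Each group was then reduced to 1 entry, a setting chosen after seeing the data. Of 108 late entries tested, 8 were called higher and 2 lower, and all 8 profiles were among them. These 8 higher calls outnumbered the 6 higher profiles, so some were entries not called when every entry was kept. Over late and earlier entries together, 17 of the 190 tested were called at this setting. With every entry kept, the 27 calls over the whole table were 16 profiles.

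The median log2 fold change of the 124 tested late entries was 0.08, against 0.09 for all 271 tested entries, and their quartiles were -0.30 and 0.42. Of the late entries 70 had values above 0 and 54 below, 16 were above 1 and 5 below -1. In 33 both fve-8 libraries were above both WT libraries and in 29 below, 26.6% and 23.4%, against 27.3% and 26.6% of all tested entries. The late median depends on the fve-8 library used, since it was -0.36 without fve-8 replicate 1 and 0.21 without fve-8 replicate 2. That of all tested entries moved too, to -0.17 without fve-8 replicate 1 and 0.02 without fve-8 replicate 2. The nearest entry to a call had 67 and 56 counts in WT and 49 and 65 in fve-8, with a log2 fold change of 1.38 ± 0.40 (edgeR adjusted p = 0.0507). It was called higher under 5 of the 7 other settings with all libraries, with adjusted p values from 0.00938 without a count filter to 0.0383 with a stricter one. An entry with 1094 and 846 counts in WT and 699 and 465 in fve-8 had 0.79 ± 0.25 (edgeR adjusted p = 0.0726) and was called higher under 6 of the 7, with adjusted p values from 0.0153 without a count filter to 0.0483 with limma-voom. The most negative value, -1.99 ± 0.72 (adjusted p = 0.145), belonged to an entry with 80 and 59 counts in WT and 11 and 1 in fve-8, where the fve-8 libraries disagreed. It was called lower without a count filter (adjusted p = 0.00439), with the replicate number as a block (adjusted p = 0.0397) and with limma-voom (adjusted p = 0.0359). The next most negative values belonged to entries with 20 and 21 counts in WT and 2 and 2 in fve-8 (-1.84 ± 0.83), 22 and 17 against 1 and 4 (-1.44 ± 0.83), and 36 and 25 against 7 and 3 (-1.08 ± 0.67). None of these was called.

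**Figure D5:**
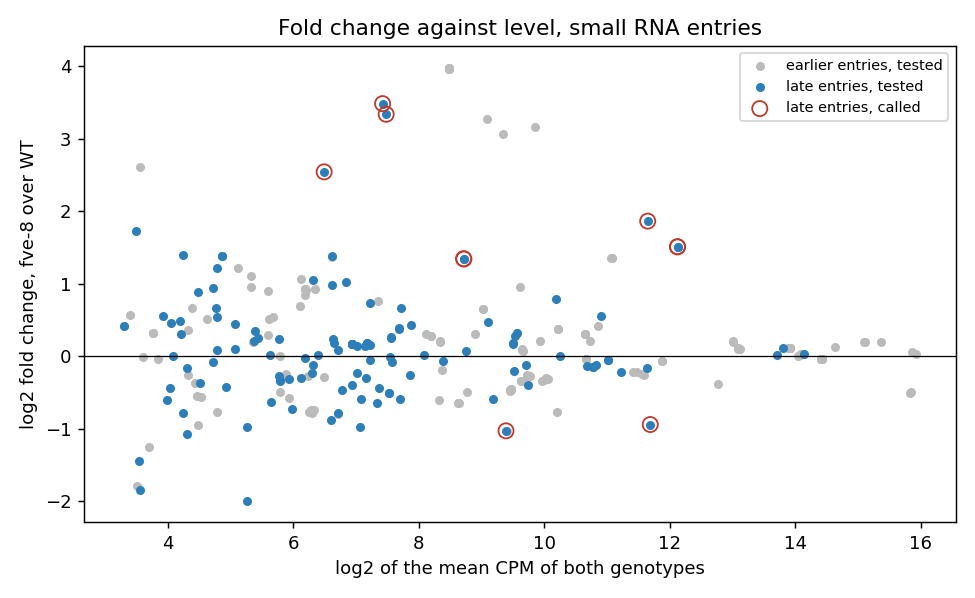
Log2 fold change (fve-8 over WT) against the log2 of the mean CPM of both genotypes for the 271 tested small RNA entries, with late entries in blue, earlier ones in grey and called late entries ringed. The late entries spread around 0 (median 0.08), and the 3 ringed points above 2 lie at low to middle levels.

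Depth limited what could be said of the scarcest entries. Of the 222 late entries 80 had counts but did not pass the filter, none with more than 23 counts in a library. Among them 26 had no count in fve-8 and at least 1 in WT, and only 2 late entries, each with a single count, were found in fve-8 alone. The WT libraries held 2247838 counts together and the fve-8 libraries 801434, and the part of this difference in depth was not tested. The entry with the most WT counts among the 26 had 14 and 11 in WT and 0 in both fve-8 libraries, where 8.91 counts would be found at its WT level. Against a floor of 3 counts over the fve-8 group, for counting error only and with its WT count taken as exact, it was at least 2.97-fold lower. The next had 12 and 8 counts in WT, at least 2.38-fold lower on the same terms. Both were picked for having no count in fve-8, so these folds are no test of a difference. Without a count filter, edgeR called the entry with 14 and 11 counts in WT lower (adjusted p = 0.0400). It also called higher an entry with 3 and 1 counts in WT and 10 and 6 in fve-8 (adjusted p = 0.00631).

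Of 204 late entries with values, the authors' deposited table gives 13 an adjusted p under 0.05, 9 higher and 4 lower. Among all 391 entries listed there, 7.42% have one. Of these 13, 6 (46.2%) were also called here, which is 60.0% of the 10 late calls, and 3 did not pass the filter here. The authors' deposited table gives MIMAT0032774 a log2 fold change of 1.86, close to the 1.87 found here, but an adjusted p of 0.187. For MIMAT0020532 the authors' deposited table gives -0.95 with an adjusted p of 0.593. MIMAT0022400 was called in both, with 3.48 and an adjusted p of 1.13e-14 in the authors' deposited table.

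Level and detection differed between stretches of accession numbers. Of the 35 entries numbered from 10000 up to 20000, 10 were tested, and the median of the 35 was 4.33 CPM in WT. Together the 35 held 0.337% to 0.557% of the late counts of a library. None of these 10 was called by edgeR, 0 had an unadjusted p under 0.05, and DESeq2 and limma-voom called 0 of them. The unadjusted p was under 0.05 for 1 with DESeq2, 2 with limma-voom and 4 by edgeR with near-equal entries reduced to 1. The shares of all tested entries under that threshold at these settings are not given here. Without fve-8 replicate 2, 13 entries of this stretch were tested and some were called. That fit has a lone fve-8 library, and no share of all entries is set beside it. Of the 96 entries from 20000 up to 30000, 45 were tested, the median of all 96 was 12.1 CPM in WT, and 4 rose and 1 fell. Of the 90 entries from 30000 up to 40000, 69 were tested, the median of all 90 was 114 CPM, and again 4 rose and 1 fell. This last stretch held 53.0% and 55.2% of the late counts in WT and 61.6% and 55.4% in fve-8. The median log2 fold change of the tested entries was 0.46, 0.15 and -0.05 in the 3 stretches, and the single entry numbered above 40000 had no counts. Over all 271 tested entries 9.96% were called, 7.75% higher and 2.21% lower, and whether calls differed between stretches was not tested.

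Genes that make, load and degrade miRNAs were read from the RNA libraries of the same genotypes, 3 for each, over a list of 22. All 22 were tested, 3 rose and 0 fell by edgeR at an adjusted p under 0.05, where 11.7% of all 19543 tested features were called, 6.60% higher and 5.07% lower. At an unadjusted p under 0.05 there were 5 higher and 3 lower, and DESeq2 called 3 higher and 0 lower. Shares of all RNA features at that threshold and by DESeq2 are not given here, so those counts have no background beside them. Among 9 genes of hairpin cutting, HYL1 (AT1G09700), the double-stranded RNA-binding partner of DCL1 that also takes part in strand choice, stood at 2.57, 3.08 and 3.30 CPM in WT and 4.92, 5.54 and 4.23 in fve-8. Each fve-8 library was above each WT library, and the log2 fold change was 0.72 ± 0.18 (SE, edgeR adjusted p = 0.0320). TGH (AT5G23080), an RNA-binding protein of the same complex, had 7.59, 9.05 and 7.14 CPM in WT and 13.7, 13.6 and 10.1 in fve-8 (0.66 ± 0.16, adjusted p = 0.0269). DCL1 (AT1G01040), which makes the cuts, overlapped between genotypes, with 21.3, 21.3 and 17.3 CPM in WT and 22.6, 19.5 and 18.2 in fve-8 (0.01 ± 0.13, adjusted p = 0.969). SE (AT2G27100) had a log2 fold change of 0.08 ± 0.09, and CPL1 (AT4G21670), a phosphatase that acts on HYL1, -0.07 ± 0.10.

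Of the 5 genes of tailing and turnover, SDN3 (AT5G67240), an exonuclease of the small RNA degrading family, rose from 12.4, 9.31 and 11.95 CPM in WT to 25.2, 22.8 and 14.4 in fve-8 (0.89 ± 0.20, edgeR adjusted p = 0.0225). Its relatives SDN1 (AT3G50100) and SDN2 (AT5G05540) had 0.56 ± 0.21 and 0.50 ± 0.22 and were not called. URT1 (AT2G45620), a uridylyltransferase, had -0.34 ± 0.10 (adjusted p = 0.0556). Neither the methyltransferase gene HEN1 (AT4G20910, 0.11 ± 0.15) nor HST (AT3G05040, -0.28 ± 0.10), which acts in miRNA export, was called, nor any of the 4 Argonaute genes, whose values ran from -0.19 to 0.36. All 3 calls were lost whenever a WT library or fve-8 replicate 2 was left out, and HYL1 had an adjusted p = 0.0668 with the replicate number as a block. With library totals alone the median of all RNA features moved from -0.01 to 0.33, that of the list from 0.05 to 0.39, and 8 of the list were called higher. The share of all RNA features called higher at that setting is not given here, so these 8 have no background beside them. Whether these transcripts bear on the small RNA differences was not tested.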

How the data were processed

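Small RNA of 19 to 24 nt was sequenced from 2 WT and 2 fve-8 libraries and total RNA from 3 of each. TopHat2, SAMtools, HTSeq and edgeR were used, per the submitters' processing notes. Not given in the sources used here: their versions, the build and how multiply mapped reads were counted. The authors deposited 1 table per assay with raw counts per feature and library, beside their own log2 fold changes and adjusted p-values, which are printed only where the authors' deposited table is named. A further 10 per-sample columns of normalized values were not used.

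Each assay was fitted over its whole table with genotype as the only term, in edgeR 4.0.16 and R 4.3.3: filterByExpr with a minimum count of 10, TMM, quasi-likelihood F-tests and p-values adjusted by Benjamini-Hochberg. Each SE is the absolute log2 fold change over the root of F, SDs are over libraries, and DESeq2 1.42.0 and limma 3.58.1 served as alternatives. The members, gene list and naming rule were chosen with earlier results of these data known. The rule named every called entry, the 10 most abundant, the 4 largest and 4 smallest changes, both threshold neighbours and all listed genes. Its strand pairs and 2 families needed names not used here. Which accessions to print, at most 2 per direction, was decided after values were seen. Symbols of all 22 listed genes matched the RefSeq table of TAIR10.1. In simulated small RNA counts 1 of 216 unchanged entries was called, and 20%, 38.5% and 85.7% of entries changed 1.5-fold, 2-fold and 4-fold were recovered over 258 entries. In simulated RNA counts over 19251 features 31.8%, 80.3% and 96.9% were recovered. Simulated features were drawn independently, without equal counts or a shift between replicates, and whether these rates hold for the real libraries was not tested. Intervals and floors cover counting error only.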

Additional observations from a re-analysis of the deposited data

How the results depend on the processing

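Scaling by DESeq2 size factors or library totals, other count filters, DESeq2, limma-voom and the replicate block left 10 to 15 late entries called, and all 10 calls held. These settings tested 82 to 204 late entries, and the whole table gave 27 to 34 calls among 198 to 391 tested entries. The 15 late calls came without a count filter, from 204 late entries tested, beside 34 calls among all 391. Beyond the 10 calls that held, 5 late entries were called under at least 1 of the 7 settings, 3 higher and 2 lower. Without a count filter 4 were called lower, the 2 added being 1 entry not tested otherwise and 1 tested but not called; the cause was not tested. With near-equal entries reduced to 1, an alternative chosen after seeing the data, the whole table gave 17 calls among 190 tested entries. With every entry kept it gave 27 calls among 271, which were 16 profiles when counted once per group. Without 1 library at a time, the calls over the whole table ranged from 9 to 39, over late entries from 1 to 14, with 1 to 12 higher and 0 to 2 lower, the median late log2 fold change from -0.36 to 0.21, and the genotype difference in the late share from 0.374 to 1.93 percentage points; the cause was not tested. That difference was 0.994 points without the table's most abundant entry, an earlier one, and 1.16 points without the most abundant late entry. It was not computed without the pair of late entries with identical counts. Of the 22 processing genes, library totals called 8, all higher, with no share of all RNA features at that setting given beside them. Leaving out 1 RNA library gave 0 to 5 calls, 0 to 5 higher and 0 to 1 lower. Same-numbered small RNA libraries did not deviate together (r = -0.02 over tested entries), nor did RNA libraries (r of -0.03, -0.08 and -0.19), so the numbers are not taken as pairs; the replicate block gave 12 late calls, 9 higher and 3 lower, and 2 processing genes. The strand ratios and the MIR primary transcripts planned were not run, since strands and hairpins of the entries were not used here.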
